A study of Mus musculus with 35 samples.

Results

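The receptors followed here are the genes whose mouse symbols consist of Gpr and a number, or begin with Adgr, P2ry, P2rx or Adora. The table held 123 such symbols. Of these, 57 exceeded 1 CPM (counts scaled to the library total) in at least 5 of the 35 samples once *Gpr141* and *Gpr183* had been set aside, and these 57 are the members, among 13421 genes that passed the same filter. They were 15 of the 28 adhesion receptors, 8 of the 9 P2Y receptors, 2 of the 7 P2X channels, all 4 adenosine receptors and 28 of the 75 GPR symbols. Of the 66 symbols that are not members, 64 were below the filter, where no sample exceeded 3.58 CPM and 19 symbols had no count at all. *Gpr162*, with 6 samples over 1 CPM, lay just inside the limit, and *Gpr153*, *Gpr31b* and *P2rx5*, with 4 samples each, lay just outside it. A total of 43 members had a sample over 1 CPM in all 6 groups, and *Gpr162* had one in a single group.

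As background, most of these proteins cross the membrane in 7 helices and signal through heterotrimeric G proteins, although many GPR symbols were given to orphans for which no ligand was known. Adhesion receptors carry long extracellular domains that bind matrix or neighbouring cells and are cut from the membrane part by autoproteolysis. P2Y receptors sense extracellular nucleotides, P2X proteins are ATP-gated ion channels and not G-protein-coupled, and adenosine receptors sense the nucleoside formed when ATP is broken down outside the cell. In macrophages (macs), nucleotides released by damaged cells guide migration and inflammasome activity, and lysophospholipids and extracellular protons are ligands of several GPR members.

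The data are bulk RNA-seq of macs sorted from the livers of male C57Bl/6J mice that received a standard diet (SD) or a Western diet (WD), which is rich in fat and cholesterol and was given with fructose and sucrose in the drinking water, from 5 weeks of age. Cells gated as CD64+F4/80+ were divided by CLEC4F and TIM4 into resident Kupffer cells (ResKCs, CLEC4F+TIM4+), monocyte-derived Kupffer cells (moKCs, CLEC4F+TIM4-) and CLEC4F- macs. The groups were ResKCs after 12 weeks of SD (n = 7) or WD (n = 5), ResKCs after 24 weeks of SD (n = 6) or WD (n = 6), and moKCs (n = 5) and CLEC4F- macs (n = 6) after 24 weeks of WD. Diet could be compared in ResKCs alone, because both other populations were sampled on WD only, and the population differences are those seen on WD. The diet tag of the 5 WD samples at 12 weeks reads standard diet, whereas their titles and descriptions give WD, and they were treated as WD. F4/80, used in the gate, is the product of the member *Adgre1*. The labels do not say whether each sample is a separate mouse, so p-values measure the spread between these samples.

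Each sample held 11568590 to 15163845 counts, so that 3 counts corresponded to 0.198 to 0.259 CPM. The labelled populations were compared with their defining markers. The 8 Kupffer cell markers summed to 25717 to 45621 CPM in the ResKC and moKC samples and to 3809 to 19312 CPM in CLEC4F- macs, whose highest value was replicate 4. The 5 resident Kupffer cell markers, including *Timd4*, summed to 3113 to 8619 CPM in ResKCs, while the sums were 375 to 1394 CPM for moKCs and 28.8 to 222 CPM for the CLEC4F- samples. The 6 monocyte markers summed to 370 to 1432 CPM in CLEC4F- macs and to no more than 290 CPM elsewhere. The 5 dendritic cell markers summed to 14.8 to 246 CPM in CLEC4F- macs and the 6 B cell markers to 29.0 to 188 CPM, with replicate 1 highest for both. CLEC4F- replicates 1 and 4 therefore stand apart, and the counts of members that passed and the calls that were lost are also given without them. The 8 liver sinusoidal endothelial cell markers summed to 435 to 1884 CPM over all samples, with no group free of them.

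Per kb of exon, which is the scale on which genes can be set beside each other, 3 EGF-domain adhesion receptors stood highest in WD ResKCs at 24 weeks. *Adgre1* had a mean level of 925 CPM per kb, *Adgre4* 265 CPM per kb and *Adgre5* 257 CPM per kb. The ADP receptors *P2ry13* and *P2ry12* followed at 151 and 76.1 CPM per kb, then the ATP-gated channel *P2rx4* at 52.8 and the UDP receptor *P2ry6* at 44.2 CPM per kb. Among the GPR members, *Gpr108* had 40.5, the proton sensor *Gpr65* 36.6 and *Gpr35* 15.04 CPM per kb in the same cells. *Adgre1* remained first in all 6 groups, at 394 CPM per kb in CLEC4F- macs, whereas *Gpr35* stood at 6.44 in SD ResKCs at 12 weeks and 26.3 CPM per kb in CLEC4F- macs.

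**Figure D1:**
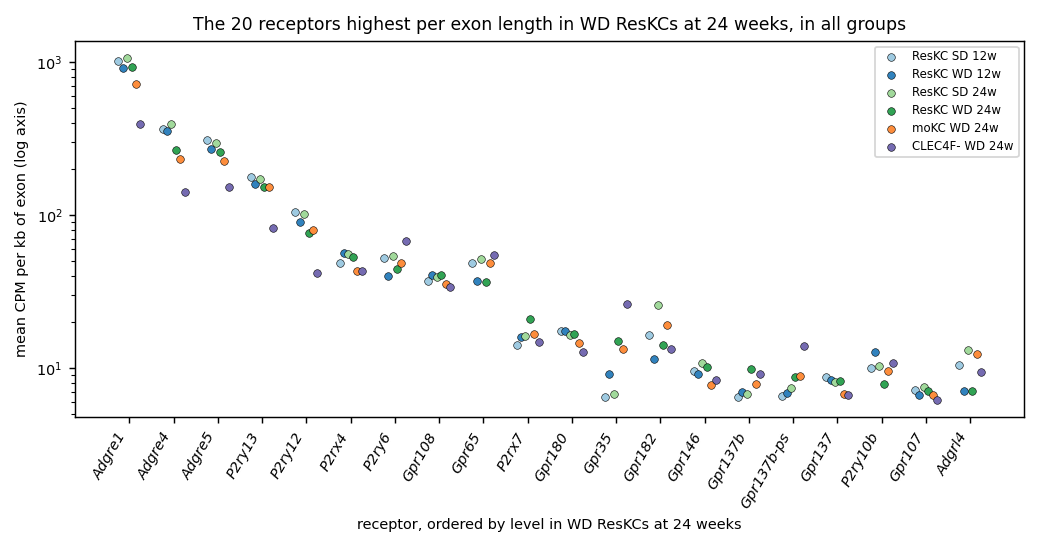
Mean level (CPM per kb of exon, log axis) of the 20 receptors that were highest per exon length in WD ResKCs at 24 weeks, one point for each of the 6 groups. *Adgre1* lies at 925 CPM per kb in WD ResKCs and 394 in CLEC4F- macs, and *Gpr35* spans 6.44 to 26.3 CPM per kb.

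More members passed the test where CLEC4F- macs were compared with either Kupffer cell group than between the diets. By the quasi-likelihood F test of edgeR with Benjamini-Hochberg adjustment over 13421 genes, 40 of the 57 members (70.2%) differed among the 6 groups, beside 43.8% of all genes. The filter admitted 7 members only because of their CLEC4F- samples, among them *Gpr132*, *Gpr162*, *Gpr176*, *Gpr82*, *Adora3* and *Adgrg5*, and 5 of the 7 are among the members higher in CLEC4F- macs than in WD ResKCs and 5 among those higher than in moKCs. These genes needed CLEC4F- samples over 1 CPM to be counted, and the counts of higher members are a description. Between CLEC4F- macs and WD ResKCs at 24 weeks 30 members differed (52.6%), 17 higher and 13 lower in CLEC4F- macs, where 33% of all genes differed, 16.1% higher and 17% lower. Between CLEC4F- macs and moKCs 18 members differed (31.6%), 12 higher and 6 lower, beside 16.4% of all genes, 7.09% higher and 9.34% lower. With the replicate number as a block in a fit of these groups alone, 6 of them passed, beside 4.97% of all genes. The calls lost are named at the end. Between moKCs and WD ResKCs 1 member differed, lower in moKCs, beside 2.99% of all genes and 2% lower. Between WD and SD ResKCs at 24 weeks 9 members differed (15.8%), 5 higher and 4 lower on WD, beside 8.71% of all genes, 4.84% higher and 3.87% lower. With library-size scaling in place of TMM 6 of the 57 members differed, 5 higher and 1 lower, beside 11% of all genes. *Gpr65*, *P2ry12* and *P2ry6* were lost there. With an absolute log2 fold change over 1 as a further condition, which the study used, 3 members remained for diet at 24 weeks beside 3.35% of all genes, 15 for CLEC4F- macs against WD ResKCs beside 10.4%, and 9 for CLEC4F- macs against moKCs beside 5.05%.

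The median log2 fold change over the 57 members was 0.31 between CLEC4F- macs and WD ResKCs, beside 0.02 over all genes. For CLEC4F- macs against moKCs it was -0.005 for the members and -0.005 for all genes, and for diet at 24 weeks it was -0.07 for the members and 0.004 for all genes. Of the members that differed, 16 did so against both Kupffer cell groups, 14 against WD ResKCs alone and 2, *Adora3* and *Gpr157*, against moKCs alone; whether the contrasts themselves differ was not tested, and both use the same CLEC4F- samples. In bulk samples a smaller share of cells that express a gene and less RNA per cell cannot be told apart.

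**Figure D2:**
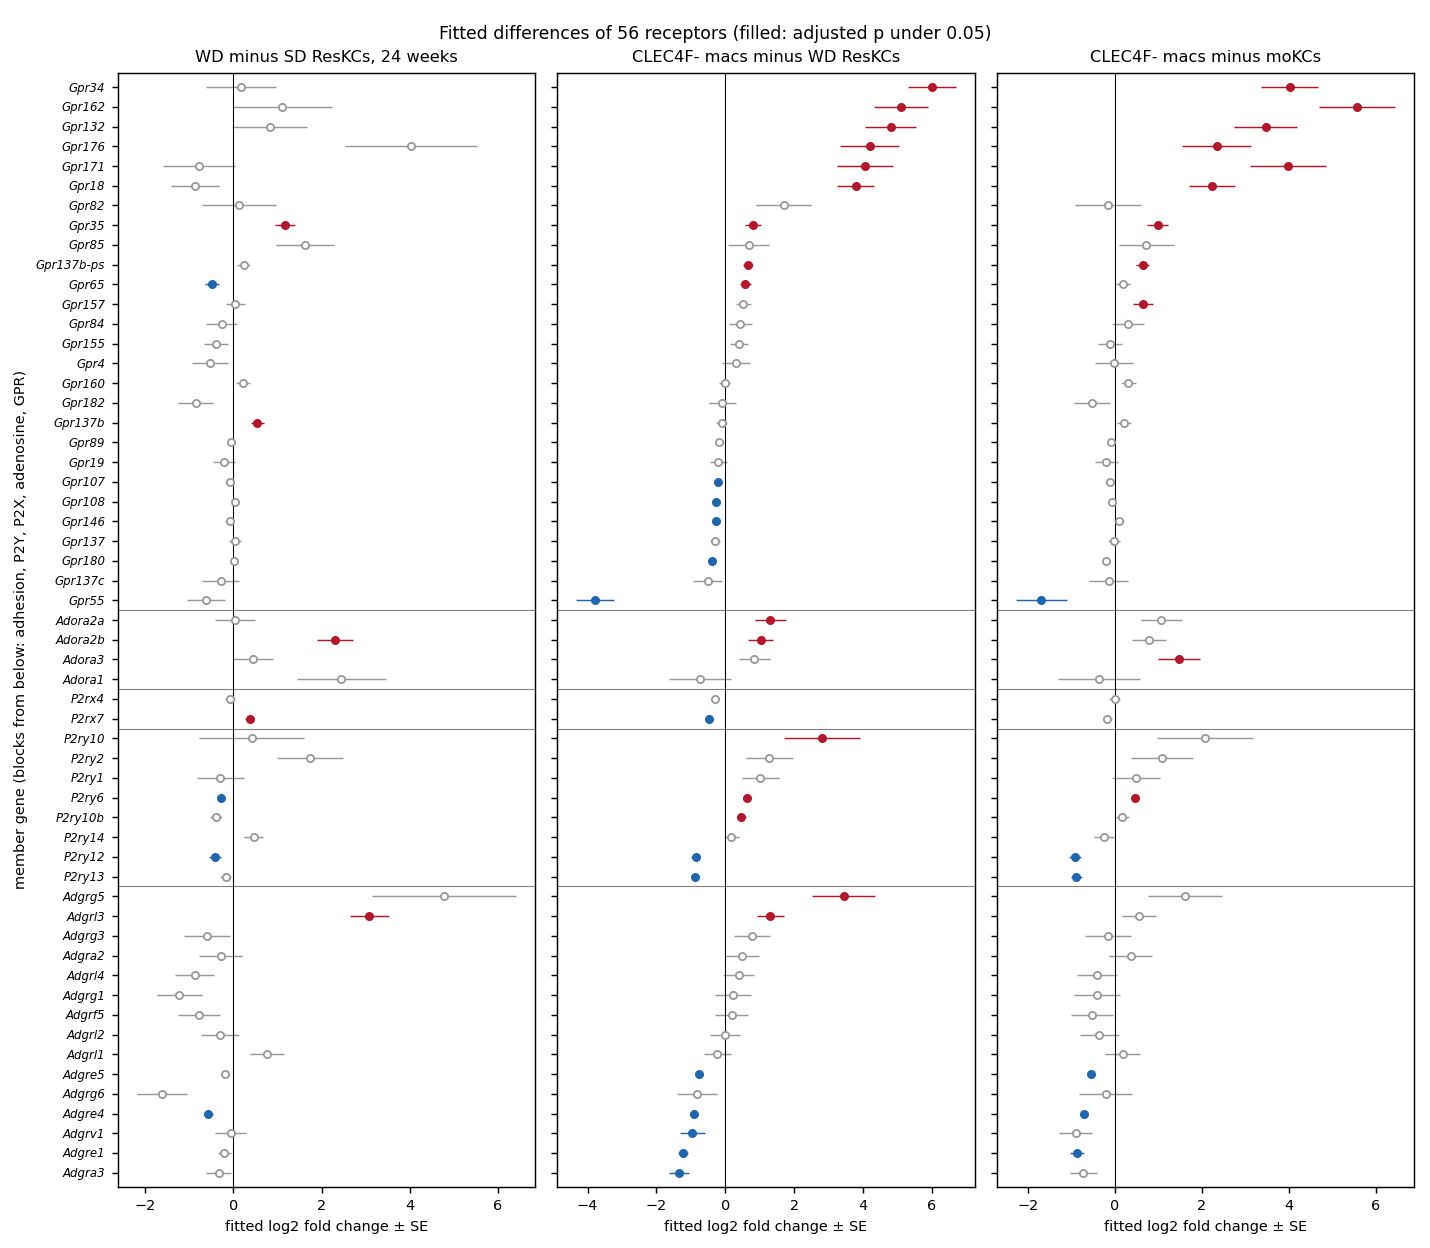
Fitted log2 fold change (± SE) of 56 of the 57 receptors for WD minus SD ResKCs at 24 weeks, CLEC4F- macs minus WD ResKCs, and CLEC4F- macs minus moKCs, filled where the adjusted p was under 0.05. Filled points number 9, 29 and 17, and *Gpr34* lies at 6.00 in the middle panel, the farthest right there with all samples, whereas *Gpr162* (8.10) exceeds it (7.44) without WD ResKC replicate 4.

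The EGF-domain adhesion receptors, of which *Adgre5* binds CD55 and chondroitin sulphate, were lower in CLEC4F- macs. *Adgre1*, which encodes F4/80, had a lowest, median and highest value of 756.1, 1238 and 1981 CPM in the 6 CLEC4F- samples. In WD ResKCs at 24 weeks the same 3 values were 2709, 2891 and 3724 CPM, and the 5 moKC samples had 2372, 2092, 2447, 2276 and 2480 CPM. The CLEC4F- samples all lay below both Kupffer cell groups, with replicate 4, which also had the highest Kupffer cell markers, nearest to them. The fitted log2 fold change of *Adgre1* was -1.23 ± 0.15 (SE) against WD ResKCs (adjusted p = 7.06e-08, edgeR) and -0.87 ± 0.15 against moKCs (adjusted p = 9.55e-05).

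*Adgre4*, a receptor of the same family, differed both between populations and with diet. Its level in ResKCs at 24 weeks was 1374 ± 90.1 CPM (SD, n = 6) on SD, from 1243 to 1485 with a median of 1396, and 924 ± 108 CPM (n = 6) on WD, from 772 to 1043 with a median of 942. No WD sample reached the lowest SD sample at that time. The fitted log2 difference was -0.57 ± 0.10 (adjusted p = 0.000302, edgeR), and the call held without any 1 sample. After 12 weeks the level was 1274 ± 140 CPM on SD (n = 7) and 1235 ± 128 CPM on WD (n = 5), a log2 difference of -0.04 ± 0.10 (adjusted p = 0.929). The difference between those diet effects was -0.53 ± 0.14, which did not pass with edgeR (adjusted p = 0.0744) and did with DESeq2 (-0.52, adjusted p = 0.0302). In CLEC4F- macs *Adgre4* was lower again, at 497 ± 80.5 CPM, with log2 fold changes of -0.90 ± 0.10 against WD ResKCs (adjusted p = 8.78e-09) and -0.71 ± 0.10 against moKCs (adjusted p = 5.01e-06).

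*Adgre5*, which encodes the leukocyte receptor CD97, lay at 573 ± 30.8 CPM in CLEC4F- macs, 842 ± 159 CPM in moKCs and 966 ± 105 CPM in WD ResKCs. It was lower in CLEC4F- macs than in WD ResKCs by a log2 fold change of -0.75 ± 0.09 (adjusted p = 7.42e-08, edgeR) and than in moKCs by -0.55 ± 0.10 (adjusted p = 6.72e-05). The 6 CLEC4F- samples reached 616 CPM at most and did not overlap with the other groups. The exons of *Adgre5* share 895 bases (23.8% of its exon length) with *Ddx39* in the GENCODE M21 annotation, and whether counting used strand is not given in the sources used here, so reads there cannot be assigned with certainty.

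*Adgrl3*, a latrophilin that binds FLRT and teneurin proteins and is known chiefly from neurons, went the other way. In SD ResKCs at 24 weeks its lowest, median and highest values were 0.0721, 0.695 and 2.29 CPM. On WD at 24 weeks they were 3.68, 5.73 and 15.6 CPM, with replicate 4 highest and no overlap with SD. The log2 difference was 3.08 ± 0.45 (adjusted p = 4.04e-05, edgeR), the largest of the 9 diet differences among members, and it passed in all 12 fits without a single sample of these groups. At 12 weeks the mean was 1.35 ± 0.756 CPM on SD and 2.86 ± 1.44 CPM on WD, a log2 difference of 1.07 ± 0.43 (adjusted p = 0.476). The difference between the diet effects at the 2 times was 2.01 ± 0.62 (adjusted p = 0.132 with edgeR and 0.0453 with DESeq2). Among the populations on WD, moKCs had 12.5 ± 3.70 CPM and CLEC4F- macs 18.3 ± 2.80 CPM, the latter higher than WD ResKCs by a log2 fold change of 1.31 ± 0.38 (adjusted p = 0.00789). Its annotated exons are long, so on the scale per kb the highest group mean was only 1.03.

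Of the other adhesion members, 3 differed between CLEC4F- macs and WD ResKCs. *Adgra3* had 3.86 ± 1.27 CPM against 9.82 ± 3.32 CPM, a log2 fold change of -1.35 ± 0.30 (adjusted p = 0.000653). *Adgrg5*, expressed in some leukocytes, had 2.75 ± 1.60 CPM against 0.245 ± 0.414 CPM, a log2 fold change of 3.44 ± 0.91 (adjusted p = 0.00402), and no count in any of the 6 SD samples at 24 weeks. It passed the filter only with CLEC4F- samples, so its values are a description. *Adgrv1*, the very large receptor of hair cells, had 1.79 ± 1.26 CPM against 3.48 ± 1.42 CPM and a log2 fold change of -0.95 ± 0.37 (adjusted p = 0.0421). The *Adgrv1* call was lost in 7 of the 12 fits without a sample of these groups, up to an adjusted p of 0.142 without WD ResKC replicate 6.

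The remaining 8 adhesion members did not pass in any pairwise comparison. They included *Adgrl4* and *Adgrf5*, known from endothelium, whose samples spread widely within groups: *Adgrl4* ranged from 13.5 to 57.4 CPM in WD ResKCs at 24 weeks and *Adgrf5* from 10.9 to 72.3 CPM. The endothelial marker list ranged from 526 to 1048 CPM in the same samples. With the endothelial list as a covariate, a fit added after seeing the data, *Adgrf5*, *Adgrg3* and *Adgrl4* passed as higher in CLEC4F- macs than in WD ResKCs, at log2 fold changes of 0.53, 1.11 and 0.66 (adjusted p = 0.000616, 0.000537 and 0.000679). Of the 8 endothelial markers 2 were lower and 0 higher in CLEC4F- macs than in WD ResKCs, beside 17% and 16.1% of all genes. Their median log2 fold change was 0.20. Part of the covariate thus differs between the populations, and its share in these values was not tested. *Adgrg6* varied among the 6 groups (adjusted p = 0.00278), with means from 6.89 CPM in CLEC4F- macs to 37.2 CPM in SD ResKCs at 24 weeks, and its diet difference at 24 weeks of -1.62 ± 0.57 missed the threshold with edgeR (adjusted p = 0.0707) and passed with DESeq2 (-1.62, adjusted p = 0.0474). *Adgrg1*, *Adgra2*, *Adgrl1* and *Adgrl2* passed neither there nor among the 6 groups, with means of 0.733 to 13.8 CPM.

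The P2Y receptors for ADP, *P2ry12* and *P2ry13*, lie beside each other on the minus strand of chromosome 3 (mm10, *P2ry13* at chr3:59207892-59210882 and *P2ry12* at chr3:59216272-59262871), together with *P2ry14* (chr3:59113855-59153618) and *Gpr171* (chr3:59096448-59101821). ADP released by platelets and damaged cells is the ligand of both. *P2ry12* had a lowest, median and highest value of 59.2, 107 and 156 CPM in CLEC4F- macs and of 177, 189 and 216 CPM in WD ResKCs, and the moKC samples had 236, 161, 205, 192 and 219 CPM. *P2ry13* had 126, 200 and 310 CPM in CLEC4F- macs and 328, 386 and 424 CPM in WD ResKCs, and 457, 312, 425, 321 and 420 CPM in moKCs. For both genes the CLEC4F- samples lay below every sample of either Kupffer cell group, replicate 1 lowest and replicate 4 highest. Against WD ResKCs the log2 fold changes were -0.86 ± 0.14 for *P2ry12* (adjusted p = 5.73e-06, edgeR) and -0.87 ± 0.12 for *P2ry13* (adjusted p = 6.43e-07), and against moKCs -0.92 ± 0.14 (adjusted p = 1.24e-05) and -0.89 ± 0.12 (adjusted p = 4.27e-06).

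On the same stretch of chromosome 3, *P2ry14*, the receptor for UDP-glucose, had 33.6 ± 10.9 CPM in CLEC4F- macs and 29.6 ± 7.13 CPM in WD ResKCs (log2 fold change 0.18 ± 0.22, adjusted p = 0.589), while *Gpr171* was higher in CLEC4F- macs. The 4 neighbours therefore did not share a direction. *P2ry14* varied among the 6 groups (adjusted p = 0.000188), with group means from 16.9 CPM in SD ResKCs at 12 weeks to 39.7 CPM in moKCs. The 250 bases upstream of the starts of *P2ry12* and *P2ry13* (RefSeq, GRCm38.p6, minus strand, 5′ to 3′) are shown because these genes lie next to each other and had nearly the same fold changes. Capitals mark matches to AGGAAGT, a motif of the macrophage factor PU.1, and to the E-box CACGTG, searched on both strands.
P2ry12 (chr3:59262986-59263235): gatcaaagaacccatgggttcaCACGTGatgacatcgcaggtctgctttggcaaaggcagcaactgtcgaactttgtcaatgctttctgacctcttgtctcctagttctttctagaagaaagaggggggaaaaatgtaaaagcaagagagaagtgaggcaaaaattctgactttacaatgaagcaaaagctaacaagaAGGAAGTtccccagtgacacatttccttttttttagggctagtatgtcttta
P2ry13 (chr3:59210883-59211132): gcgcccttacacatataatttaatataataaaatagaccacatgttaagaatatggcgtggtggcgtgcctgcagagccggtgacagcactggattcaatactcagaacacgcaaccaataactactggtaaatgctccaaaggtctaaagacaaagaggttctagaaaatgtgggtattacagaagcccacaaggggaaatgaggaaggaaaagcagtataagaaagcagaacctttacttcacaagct
*P2ry12* held both motifs and *P2ry13* neither. Among 32851 RefSeq promoters of this length, 7.69% held AGGAAGT and 6.02% held CACGTG. Of the 45 members with a promoter entry, 12 and 2 held them in any of their entries. The AP-1 motif TGANTCA was in 6.75% of promoters and 8 members, and a joint PU.1-IRF motif, whose start can overlap the PU.1 motif, in 2.3% of promoters and 0 members. Several members have more than 1 promoter entry, so the counts of members cannot be set against the shares of single promoters. A match of letters is not a binding site, and the window says nothing of sites elsewhere.

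*P2ry12* also differed with diet, at 260 ± 19.2 CPM in SD ResKCs and 194 ± 16.6 CPM in WD ResKCs at 24 weeks, with no overlap (log2 difference -0.42 ± 0.13, adjusted p = 0.0433, edgeR). That p lies near the threshold and passed in 4 of the 12 fits that left out a sample, rising to 0.0853 without SD replicate 1, while the log2 difference stayed between -0.46 and -0.39. With library-size scaling it did not pass either (-0.34, adjusted p = 0.0744). *P2ry13* had 433 ± 22.7 CPM on SD and 383 ± 32.3 CPM on WD at 24 weeks (-0.18 ± 0.12, adjusted p = 0.376).

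*P2ry6*, the receptor for UDP, which is known to drive phagocytosis, was lower on WD and higher in CLEC4F- macs. In ResKCs at 24 weeks it had 156 ± 9.69 CPM on SD and 128 ± 14.1 CPM on WD, a log2 difference of -0.29 ± 0.08 (adjusted p = 0.0233, edgeR), which passed in 9 of 12 fits without a sample and was lost with library-size scaling (-0.21, adjusted p = 0.087). After 12 weeks the 7 SD samples lay from 139 to 167 CPM and the 5 WD samples at 127, 117, 104, 121 and 107 CPM, without overlap. There the log2 difference of -0.39 ± 0.08 did not pass with edgeR (adjusted p = 0.0859) and passed with DESeq2 (-0.40, adjusted p = 0.00443). CLEC4F- macs had 196 ± 18.8 CPM of *P2ry6*, above the 141 ± 21.1 CPM of moKCs and the 128 ± 14.1 CPM of WD ResKCs, with log2 fold changes of 0.47 ± 0.08 (adjusted p = 0.00011) and 0.62 ± 0.08 (adjusted p = 2.46e-07). The CLEC4F- samples did not overlap with WD ResKCs, and their lowest sample, 166 CPM, lay below the highest moKC sample at 175 CPM.

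The other P2Y members were low or changed little. *P2ry10b* had 37.4 ± 5.61 CPM in CLEC4F- macs and 27.0 ± 5.43 CPM in WD ResKCs (log2 fold change 0.47 ± 0.14, adjusted p = 0.0087). *P2ry10*, a lysophosphatidylserine receptor of lymphocytes, had 10.9 CPM in CLEC4F- replicate 1 and 0.142 to 1.88 CPM in the other 5 CLEC4F- samples. Its fitted log2 fold change against WD ResKCs was 2.81 ± 1.10 (adjusted p = 0.0465), and without that library, which also had the highest B cell and dendritic cell markers, it was 1.27 (adjusted p = 0.419). *P2ry10* and *P2ry10b* are close copies, so how reads were divided between them is uncertain. *P2ry1*, another ADP receptor, and *P2ry2*, a receptor for ATP and UTP, passed no pairwise comparison, with *P2ry2* means from 0.574 CPM in SD ResKCs at 12 weeks to 5.66 CPM in CLEC4F- macs (adjusted p = 0.00151 among the 6 groups).

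**Figure D3:**
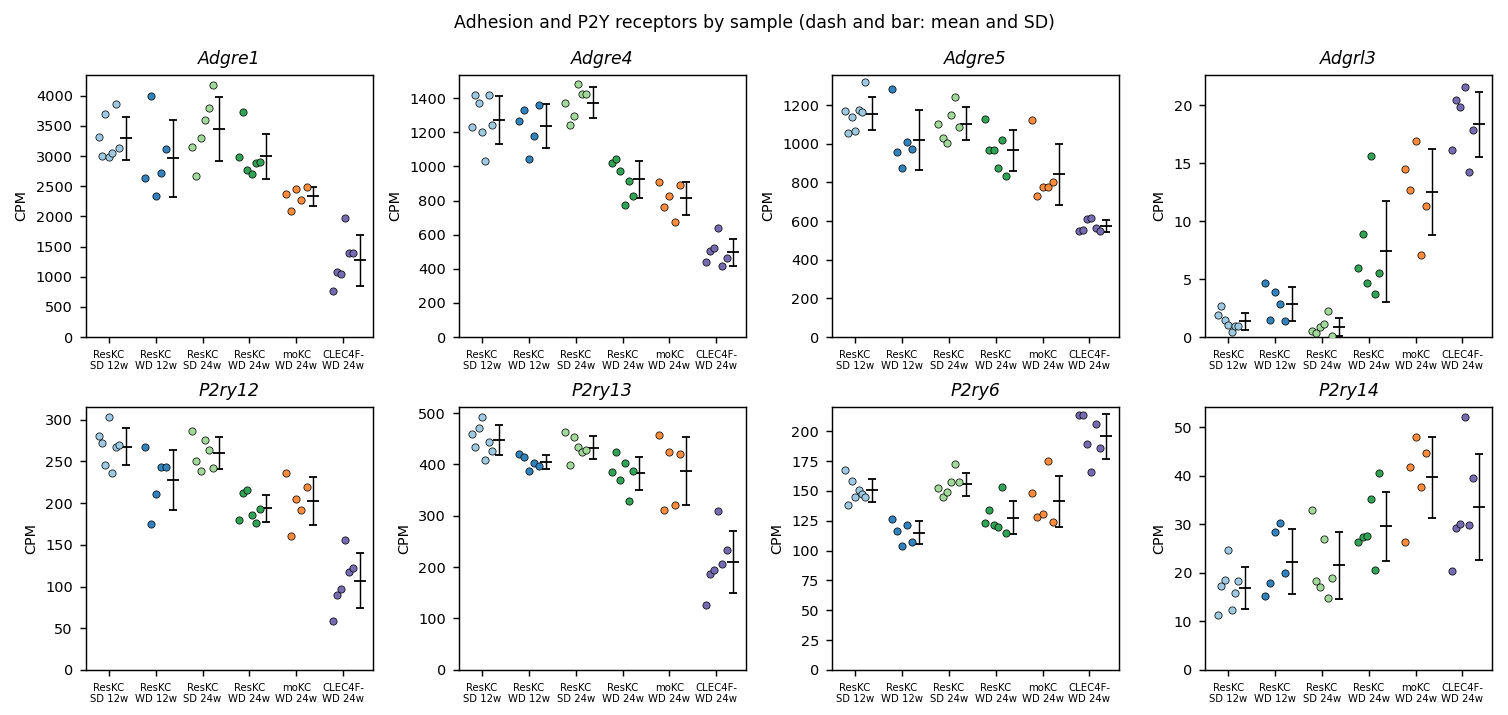
CPM of 4 adhesion and 4 P2Y receptors in every sample of the 6 groups, with dash and bar for the mean and SD and each vertical axis starting at 0. *Adgre1*, *Adgre4*, *Adgre5*, *P2ry12* and *P2ry13* are lowest in CLEC4F- macs, where *Adgre1* reaches 1981 CPM at most, and *Adgrl3* and *P2ry6* are highest there.

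The P2X members were *P2rx4* and *P2rx7*, which lie next to each other on chromosome 5 (mm10, chr5:122707544-122729738 and chr5:122643911-122691432). *P2rx7*, the ATP-gated channel that triggers the NLRP3 inflammasome, had 96.4 ± 17.6 CPM in SD ResKCs and 125 ± 17.3 CPM in WD ResKCs at 24 weeks, with overlapping samples (log2 difference 0.37 ± 0.10, adjusted p = 0.019, edgeR). It passed in 11 of 12 fits without a sample, the exception being WD replicate 1 (0.31, adjusted p = 0.0573). In CLEC4F- macs *P2rx7* had 88.8 ± 10.03 CPM, below the WD ResKC samples without overlap (-0.49 ± 0.10, adjusted p = 0.000228), and moKCs had 100 ± 7.84 CPM. *P2rx4*, a channel of lysosomes and the cell surface, had 371 ± 49.3 CPM in WD ResKCs and 302 ± 22.3 CPM in CLEC4F- macs, where the log2 fold change of -0.30 ± 0.12 lay at the threshold (adjusted p = 0.0508 with edgeR and 0.0449 with DESeq2).

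The 4 adenosine receptors were all low, with no group mean over 10.1 CPM. *Adora2b*, the low-affinity receptor coupled to cAMP, had 0.913, 1.23, 0.376, 1.22, 0.552 and 1.73 CPM in the 6 SD ResKC samples at 24 weeks. The 6 WD samples had 4.79, 2.38, 3.53, 6.70, 3.07 and 9.46 CPM. Every WD sample lay above every SD sample, and the log2 difference was 2.30 ± 0.40 (adjusted p = 0.000454, edgeR), which passed in all 12 fits without a sample. After 12 weeks the means were 0.507 ± 0.365 CPM on SD and 1.47 ± 1.00 CPM on WD (1.52 ± 0.44, adjusted p = 0.259), with 3.22 CPM in WD replicate 3, and 1.01 (adjusted p = 0.688) without it. The diet effects at the 2 times were not shown to differ (0.78 ± 0.61, adjusted p = 0.615). CLEC4F- macs had 10.1 ± 2.27 CPM of *Adora2b*, a log2 fold change of 1.02 ± 0.37 over WD ResKCs (adjusted p = 0.0295) that passed in 7 of 12 fits without a sample, up to 0.0776 without WD ResKC replicate 2, and moKCs had 5.89 ± 1.64 CPM.

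*Adora2a*, the receptor through which adenosine restrains inflammatory output of macs, had 5.66 ± 2.10 CPM in CLEC4F- macs and 2.29 ± 1.07 CPM in WD ResKCs. This difference, 1.3 ± 0.45 on the log2 scale, passed (adjusted p = 0.0245, edgeR), as it did in 8 of 12 fits without a sample, with a highest adjusted p of 0.0592 without WD ResKC replicate 5. *Adora3*, which couples to inhibitory G proteins, had 1.65 ± 0.406 CPM in CLEC4F- macs and 0.587 ± 0.423 CPM in moKCs (1.48 ± 0.48, adjusted p = 0.0315), a call that held in 5 of 11 fits without a sample. *Adora3* passed the filter only with CLEC4F- samples, so its values are a description. The *Adora3* exons share 20.9% of their length with *Tmigd3* on the same strand. *Adora1* passed no comparison and had group means of 0.137 to 1.04 CPM.

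The GPR members with the largest differences were those that were near 0 in ResKCs and detected in CLEC4F- macs. *Gpr34* (mm10, chrX:13632089-13640858) is a receptor for lysophosphatidylserine, known from microglia. Its lowest, median and highest values were 15.3, 26.5 and 36.7 CPM in CLEC4F- macs. The 6 WD ResKC samples had 0.218, 0, 0, 1.66, 0.263 and 0.237 CPM, and the 5 moKC samples 0.646, 2.92, 1.12, 2.47 and 0.878 CPM. All CLEC4F- samples were above all others, and the fitted log2 fold changes were 6.00 ± 0.69 over WD ResKCs (adjusted p = 2.74e-08, edgeR) and 4.02 ± 0.65 over moKCs (adjusted p = 2.94e-05). WD ResKC replicate 4 decides the size of the former, which was 7.44 without it. For moKCs against WD ResKCs, *Gpr34* had a log2 fold change of 1.98 ± 0.71 (adjusted p = 0.127), or 3.42 without WD ResKC replicate 4 (adjusted p = 0.00891). Its neighbour *Gpr82* (chrX:13661363-13667433) had 0.380 ± 0.334 CPM in WD ResKCs, against 1.40 ± 0.510 CPM for moKCs and 1.24 ± 0.715 CPM for CLEC4F- macs, and passed no pairwise comparison.

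*Gpr132*, which responds to oxidised fatty acids and lactate, had 4.16, 9.89 and 21.98 CPM as lowest, median and highest values in CLEC4F- macs. WD ResKCs had 0.290, 0, 0.0767, 1.13, 0.175 and 0.631 CPM and moKCs 0.323, 0.498, 1.05, 1.67 and 1.46 CPM. No sample of either Kupffer cell group reached the lowest CLEC4F- sample. The log2 fold changes were 4.81 ± 0.74 over WD ResKCs (adjusted p = 4.18e-06, edgeR) and 3.47 ± 0.73 over moKCs (adjusted p = 0.000743). Only 4 samples outside CLEC4F- macs exceeded 1 CPM of *Gpr132*. It passed the filter through the group where it is high, so these values are a description.

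*Gpr18*, a receptor ascribed to lipid ligands such as N-arachidonyl glycine, had 3.07, 6.53 and 20.5 CPM in CLEC4F- macs, 0.290, 0.577 and 0.964 CPM in WD ResKCs, and 1.36, 1.35, 2.10, 2.70 and 1.24 CPM in moKCs. The 3 groups were separate in that order, although moKCs and WD ResKCs did not pass the test (1.55 ± 0.55, adjusted p = 0.126). CLEC4F- macs were higher than WD ResKCs by a log2 fold change of 3.78 ± 0.54 (adjusted p = 1.29e-06, edgeR) and than moKCs by 2.23 ± 0.53 (adjusted p = 0.00255). *Gpr171*, which has been linked to the peptide BigLEN, had 1.61, 5.46 and 20.9 CPM in CLEC4F- macs, 0.263, 0.335 and 1.07 CPM in WD ResKCs, and 0.516, 0.285, 0, 0.795 and 0.805 CPM in moKCs. It too was separate from both groups, with log2 fold changes of 4.06 ± 0.82 (adjusted p = 0.000183) and 3.98 ± 0.87 (adjusted p = 0.00127).

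For *Gpr18*, *Gpr171*, *Gpr132* and *P2ry10*, the highest CLEC4F- sample was replicate 1, which also had the highest dendritic cell markers. Of the 5 dendritic cell markers 3 were higher in CLEC4F- macs than in either Kupffer cell group, as were 3 of the 5 tested monocyte markers, and all 5 tested B cell markers were higher than in WD ResKCs. The part of such cells in these differences was not tested. Without CLEC4F- replicate 1 the log2 fold changes over WD ResKCs were 3.29 for *Gpr18* (adjusted p = 6.89e-06), 3.47 for *Gpr171* (adjusted p = 0.00129) and 4.51 for *Gpr132* (adjusted p = 2.74e-05). The *Gpr132* value is a description, since the filter admitted that gene only with CLEC4F- samples.

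*Gpr162* and *Gpr176*, both orphans known mainly from the nervous system, were the sparsest of this set. *Gpr162* had 1.17, 2.75 and 3.95 CPM in CLEC4F- macs, from 16 to 57 counts per sample. In WD ResKCs 5 samples were at 0 and replicate 4 had 0.376 CPM (5 counts), and moKCs had 0, 0.0712, 0, 0.159 and 0 CPM. Over the samples of each group, 219 counts in CLEC4F- macs stood against 5 in WD ResKCs, a ratio of 39.6 with a 95% exact interval of 16.7 to 123, and against 3 in moKCs, a ratio of 59.0 with an interval of 19.9 to 288, both covering counting error only. The fitted log2 fold changes of *Gpr162*, 5.11 ± 0.78 and 5.58 ± 0.88 by edgeR, depend on how such low counts are treated and on WD ResKC replicate 4, without which the first was 8.10. All 6 samples in which *Gpr162* exceeded 1 CPM were CLEC4F- samples, so the filter fixed its direction and its values are a description. *Gpr176* had 1.49, 2.66 and 4.11 CPM in CLEC4F- macs, 0, 0.0383 and 0.552 CPM in WD ResKCs and 0.129, 0.498, 0.674, 1.43 and 0 CPM in moKCs. No CLEC4F- sample was as low as the highest of the others. The *Gpr176* log2 fold changes were 4.19 ± 0.86 over WD ResKCs (adjusted p = 0.000528) and 2.34 ± 0.80 over moKCs (adjusted p = 0.0478), the latter passing in 3 of 11 fits without a sample. Outside CLEC4F- macs 1 sample exceeded 1 CPM of *Gpr176*. It too passed the filter only with CLEC4F- samples, and its values are a description.

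*Gpr55* was the member that was lower in moKCs and in CLEC4F- macs than in WD ResKCs. This receptor for lysophosphatidylinositol (mm10, chr1:85938318-85961007) had 1.66, 4.36 and 7.89 CPM as lowest, median and highest values in WD ResKCs. The 5 moKC samples had 1.94, 0.712, 1.05, 0 and 1.39 CPM, and CLEC4F- macs had 0, 0.218 and 0.902 CPM. The CLEC4F- samples lay below all WD ResKC samples, while moKC replicate 1 lay within the WD ResKC range. The log2 fold changes were -2.09 ± 0.51 for moKCs against WD ResKCs (adjusted p = 0.017, edgeR), -3.78 ± 0.55 for CLEC4F- macs against WD ResKCs (adjusted p = 1.46e-06) and -1.69 ± 0.59 for CLEC4F- macs against moKCs (adjusted p = 0.0466). The moKC difference was the 1 member call in that comparison and was lost without moKC replicate 2 (-1.99, adjusted p = 0.059). It was also lost when only the compared groups were fitted, and the CLEC4F- difference from moKCs passed in 4 of 11 fits without a sample. Diet at 24 weeks gave -0.62 ± 0.44 (adjusted p = 0.397) for *Gpr55*, with SD ResKCs at 6.83 ± 1.22 CPM.

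The promoters of *Gpr55* and *Gpr132*, whose differences between CLEC4F- macs and WD ResKCs had opposite signs, each held the PU.1 motif on the other strand. It is marked in capitals in the 250 bases upstream of each start (RefSeq, GRCm38.p6, minus strand, 5′ to 3′).
Gpr55 (chr1:85961056-85961305): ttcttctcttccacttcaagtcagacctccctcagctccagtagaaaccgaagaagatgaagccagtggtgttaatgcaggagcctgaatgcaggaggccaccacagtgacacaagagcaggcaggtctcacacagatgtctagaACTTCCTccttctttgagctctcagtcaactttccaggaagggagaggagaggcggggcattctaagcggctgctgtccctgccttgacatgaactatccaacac
Gpr132 (chr12:112860917-112861166): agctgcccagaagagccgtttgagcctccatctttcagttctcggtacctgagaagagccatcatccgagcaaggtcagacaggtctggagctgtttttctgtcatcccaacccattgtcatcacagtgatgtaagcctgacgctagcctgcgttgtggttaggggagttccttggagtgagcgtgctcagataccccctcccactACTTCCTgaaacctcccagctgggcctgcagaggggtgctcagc

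**Figure D4:**
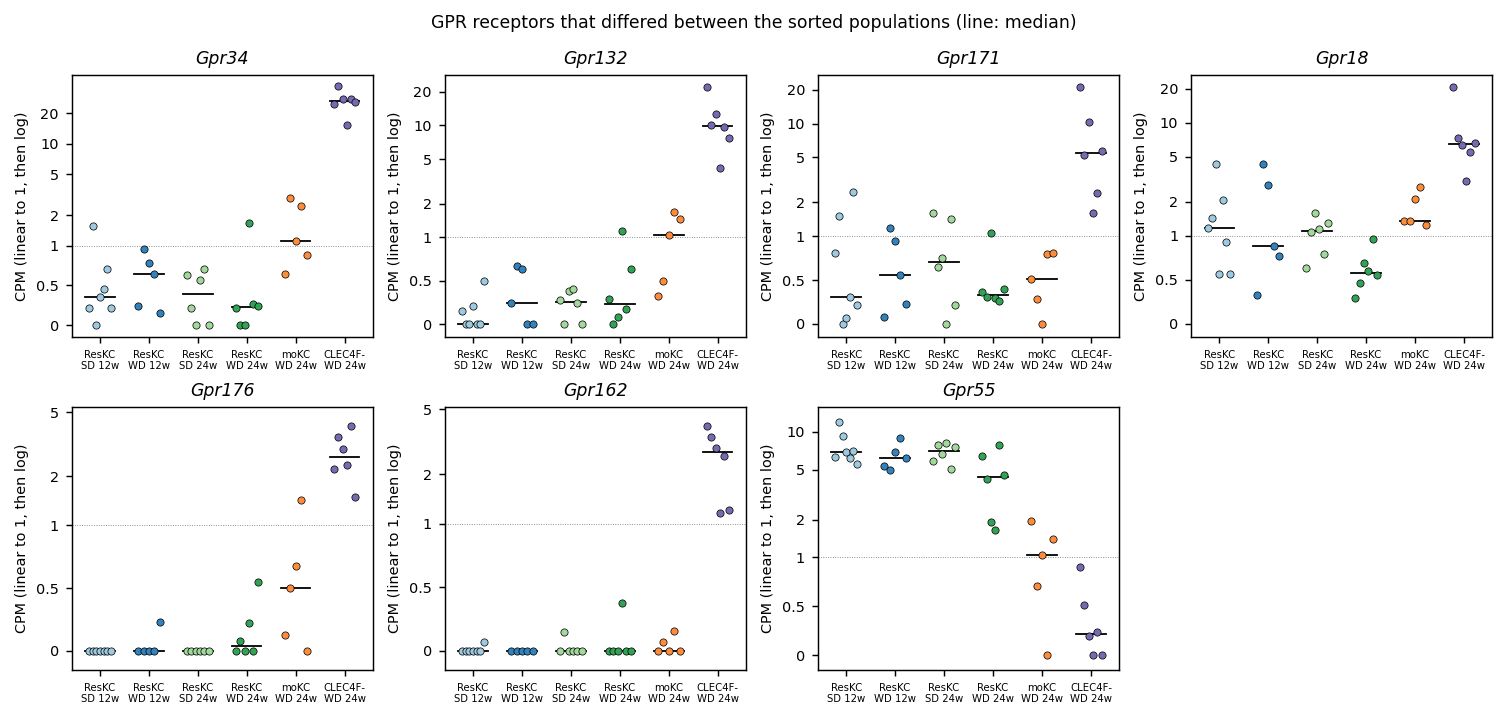
CPM of 7 GPR receptors in every sample of the 6 groups on an axis that is linear to 1 and logarithmic above, with a line at each group's median. All but *Gpr55* are highest in CLEC4F- macs, where the *Gpr34* samples lie between 15.3 and 36.7 CPM, and *Gpr55* is lowest there. *Gpr132*, *Gpr162* and *Gpr176* passed the filter only with CLEC4F- samples.

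*Gpr35*, a receptor that has been linked to kynurenic acid, lysophosphatidic acid and a chemokine, differed with diet and between populations. Its lowest, median and highest values were 18.04, 30.2 and 50.3 CPM in SD ResKCs at 24 weeks and 54.6, 68.6 and 93.8 CPM in WD ResKCs. The WD samples all lay above the SD samples, the log2 difference was 1.17 ± 0.23 (adjusted p = 0.00157, edgeR), and it passed in all 12 fits without a sample. After 12 weeks the means were 31.2 ± 6.16 CPM on SD and 44.1 ± 10.8 CPM on WD (0.50 ± 0.23, adjusted p = 0.539), and the difference between the diet effects was 0.67 ± 0.32 (adjusted p = 0.348). CLEC4F- macs had 127 ± 25.6 CPM of *Gpr35*, from 98.5 to 170, above every WD ResKC sample (0.81 ± 0.22, adjusted p = 0.00503). The moKC samples had 27.4, 100, 61.1, 64.6 and 68.2 CPM, and CLEC4F- macs were higher than these by a log2 fold change of 0.99 ± 0.24 (adjusted p = 0.00322).

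The proton sensor *Gpr65* had a lowest, median and highest value of 78.1, 102 and 154 CPM in SD ResKCs at 24 weeks and of 62.2, 74.5 and 90.6 CPM on WD, with overlap. Its log2 difference of -0.49 ± 0.16 was at the threshold (adjusted p = 0.0475, edgeR) and passed in 4 of 12 fits without a sample, at -0.35 (adjusted p = 0.151) without SD replicate 5 and -0.40 (adjusted p = 0.086) with library-size scaling. The immediate-early and heat-shock genes, of which 6 of 10 were lower on WD at 24 weeks, summed to 1893 to 10471 CPM on SD and 838 to 3907 CPM on WD. With their level as a covariate the *Gpr65* difference was -0.13 (adjusted p = 0.697), and *Gpr137b* and *P2ry6* also no longer passed. In CLEC4F- macs *Gpr65* had 113 ± 10.4 CPM, above all WD ResKC samples (0.58 ± 0.16, adjusted p = 0.00397), and moKCs had 99.7 ± 16.3 CPM. *Gpr84*, the receptor for medium-chain fatty acids, and *Gpr4*, another proton sensor, passed no comparison, with group means of 3.82 to 5.19 CPM and 2.19 to 4.85 CPM.

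*Gpr137b*, a lysosomal membrane protein that recruits mTORC1 regulators, had 27.0, 33.6 and 41.8 CPM as lowest, median and highest values in SD ResKCs at 24 weeks and 33.4, 47.8 and 68.0 CPM on WD. The samples overlapped, and the log2 difference was 0.54 ± 0.15 (adjusted p = 0.0229, edgeR), which passed in 9 of 12 fits without a sample and was 0.43 (adjusted p = 0.0808) without WD replicate 6. The related pseudogene *Gpr137b-ps* had 65.3 ± 10.9 CPM in CLEC4F- macs and 41.1 ± 5.80 CPM in WD ResKCs (0.67 ± 0.14, adjusted p = 0.000433), with 41.8 ± 11.9 CPM in moKCs (0.64 ± 0.15, adjusted p = 0.00272). The sequences of *Gpr137b* and *Gpr137b-ps* are close, so how reads were divided between them is uncertain.

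**Figure D5:**
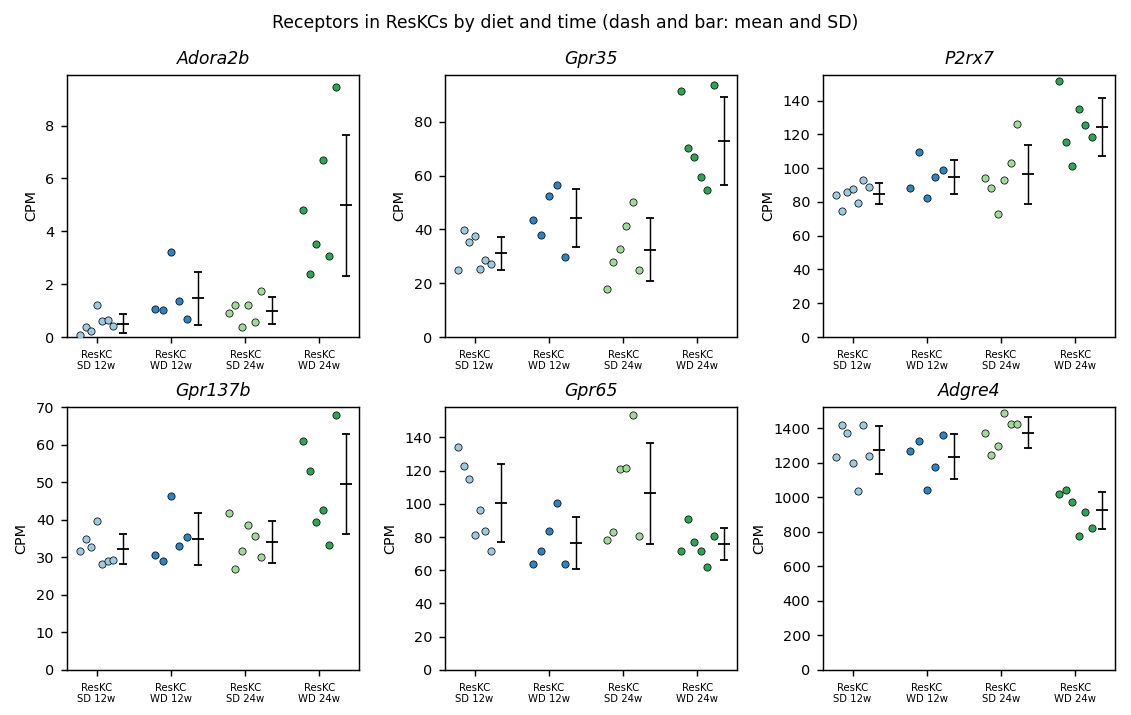
CPM of 6 receptors in every ResKC sample by diet and time, with dash and bar for the mean and SD and each vertical axis starting at 0. At 24 weeks the WD samples of *Adora2b* and *Gpr35* lie above the SD samples, those of *Adgre4* lie below, where the SD mean is 1374 CPM and the WD mean 924 CPM, and those of *P2rx7*, *Gpr137b* and *Gpr65* overlap.

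Small differences were found for several broadly expressed members between CLEC4F- macs and WD ResKCs. *Gpr180*, a membrane protein of uncertain class, had 23.9 ± 4.34 CPM against 31.1 ± 2.54 CPM (-0.38 ± 0.09, adjusted p = 0.0017, edgeR). *Gpr107* and *Gpr108*, related Golgi proteins, had 78.4 ± 6.39 against 90.8 ± 8.76 CPM (-0.21 ± 0.07, adjusted p = 0.0202) and 96.3 ± 5.27 against 116 ± 8.51 CPM (-0.27 ± 0.08, adjusted p = 0.0126). *Gpr146*, a receptor tied to cholesterol metabolism in hepatocytes, had 56.5 ± 4.06 against 68.8 ± 8.73 CPM (-0.28 ± 0.11, adjusted p = 0.0403) and passed in 3 of 12 fits without a sample. Scaling by library size alone moved the median of all genes in this comparison from 0.02 to 0.14, and with it *Gpr107*, *Gpr108* and *Gpr146* no longer passed. *Gpr157*, a receptor of neural progenitors, had 17.4 ± 3.74 CPM in CLEC4F- macs and 11.1 ± 2.19 CPM in moKCs (0.65 ± 0.23, adjusted p = 0.0481), passing in 4 of 11 fits without a sample.

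Several GPR members passed no pairwise comparison. *Gpr89*, which encodes a Golgi anion channel, *Gpr160*, *Gpr82* and *Gpr85* varied among the 6 groups, with adjusted p = 0.0295, 0.00442, 0.00941 and 0.00163. *Gpr85*, an orphan of the brain, had means of 0.274 CPM in SD ResKCs at 12 weeks and 1.88 CPM in CLEC4F- macs. *Gpr182*, an atypical chemokine receptor of sinusoidal endothelium, ranged from 19.4 to 89.4 CPM in WD ResKCs and from 49.5 to 200 CPM in SD ResKCs at 24 weeks, so that its diet difference of -0.86 ± 0.39 stayed within the spread (adjusted p = 0.166). *Gpr155*, a lysosomal cholesterol sensor, *Gpr137*, *Gpr137c* and *Gpr19* had group means of 14.9 to 21.4, 22.7 to 29.6, 1.35 to 3.03 and 2.42 to 3.29 CPM and did not vary among the 6 groups.

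After 12 weeks of diet, 0 of the 57 members differed between WD and SD ResKCs by edgeR, beside 0.0373% of all genes. At an unadjusted p under 0.05 there were 9, beside 8.73% of all genes, and DESeq2 called 1, *P2ry6*, beside 0.328%. Between SD ResKCs at 24 and 12 weeks 0 members differed by edgeR, beside 0% of all genes, with 3 at an unadjusted p under 0.05, beside 9%, and 0 by DESeq2, beside 0.119%. The diet effects at the 2 times differed for 0 members by edgeR, beside 0.283% of all genes, with 9 at an unadjusted p under 0.05, beside 14.1%. By DESeq2 they differed for 3, beside 1.37% of all genes, namely *Adgre4*, *Adgrl3* and *P2ry10b* (-0.72, adjusted p = 0.0398).

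Of the 30 members that differed between CLEC4F- macs and WD ResKCs, 19 also had groups that did not overlap (33.3% of the 57, beside 15.8% of all genes). The same held for 12 of the 18 against moKCs (21.1%, beside 7.31% of all genes) and 5 of the 9 for diet at 24 weeks (8.77%, beside 3.29% of all genes). By family, the adhesion members split 2 higher and 5 lower against WD ResKCs, the P2Y members 3 and 2, the P2X members 0 and 1, the adenosine members 2 and 0, and the GPR members 10 and 5. Members that the filter admitted only with CLEC4F- samples are among the 19, the 12 and the higher adhesion and GPR members. These counts are therefore a description. Without CLEC4F- replicates 1 and 4, 25 members differed from WD ResKCs, 15 higher and 10 lower, beside 29% of all genes, with *Adora2b*, *Gpr107*, *Gpr108*, *Gpr146* and *P2ry10* lost. From moKCs 17 differed, 9 higher and 8 lower, beside 14.3% of all genes, with *Adora3*, *Gpr157* and *Gpr176* lost and *Adgrv1* (-1.11, adjusted p = 0.0478) and *Gpr180* (-0.33, adjusted p = 0.0189) gained. Without these libraries the log2 fold changes over WD ResKCs were 6.18 for *Gpr34*, 4.69 for *Gpr132*, -1.27 for *Adgre1*, -0.85 for *P2ry12* and -4.13 for *Gpr55*, all of which passed. For *Gpr132*, which the filter admitted through CLEC4F- samples, the value is a description. Sample headers followed 2 naming schemes, whose meaning is not given in the sources used here, and within each scheme the ratio of means had the fitted direction for 30 and 29 of the 30 members, the exception being *P2ry10*. SD ResKCs at 24 weeks were all of a single scheme, so the diet difference at that time could be read within that scheme only, where all 9 members kept their direction over 3 WD and 6 SD samples. All these ratios reuse samples on which the members were called, so the same direction was likely beforehand. They cannot show whether the scheme matters.

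Genes that make or clear the ligands were read from lists of related genes. Of 22 tested genes of nucleotide and adenosine handling, 2 were higher and 10 lower in CLEC4F- macs than in WD ResKCs, where 16.1% of all genes were higher and 17% lower. *Slc29a1*, the equilibrative nucleoside transporter ENT1, had 279 ± 82.6 CPM in CLEC4F- macs, 569 ± 45.5 in moKCs and 657 ± 123 CPM in WD ResKCs (-1.24 ± 0.16, adjusted p = 2.88e-07 against WD ResKCs and -1.03 ± 0.17, adjusted p = 3.47e-05 against moKCs, edgeR). *Slc28a2*, a concentrative nucleoside transporter, had 36.8 ± 6.27 CPM in CLEC4F- macs and 77.9 ± 19.0 CPM in moKCs (-1.08 ± 0.13, adjusted p = 3.92e-07). *Enpp2*, known as autotaxin for making lysophosphatidic acid, had 18.8 ± 2.01 CPM in WD ResKCs, with moKCs at 5.37 ± 0.982 CPM and CLEC4F- macs at 3.64 ± 1.61 CPM. The moKC difference was -1.81 ± 0.27 (adjusted p = 5.39e-05) and that of CLEC4F- macs -2.37 ± 0.26 (adjusted p = 8.77e-09). *Bst1*, an ectoenzyme that uses NAD, had 3.12 ± 2.12 CPM in CLEC4F- macs and 0.763 ± 0.475 CPM in moKCs (2.02 ± 0.60, adjusted p = 0.0166). With diet at 24 weeks 1 gene of the list rose and 1 fell, beside 4.84% and 3.87% of all genes. *Alpl*, an alkaline phosphatase that degrades nucleotides, went from 0.123 ± 0.193 to 1.13 ± 0.606 CPM (3.09 ± 0.95, adjusted p = 0.0374, passing in 4 of 12 fits without a sample).

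Among 15 tested adenylyl cyclases and cAMP phosphodiesterases, 3 were higher and 5 lower in CLEC4F- macs than in WD ResKCs, beside the same 16.1% and 17% of all genes. *Adcy4*, an adenylyl cyclase, had 46.9 ± 14.2 CPM in CLEC4F- macs, 177 ± 102 in moKCs and 277 ± 66.5 CPM in WD ResKCs (-2.56 ± 0.23, adjusted p = 3.8e-10 and -1.91 ± 0.24, adjusted p = 6.92e-07, edgeR). *Adcy3* had 16.4 ± 8.56 CPM in CLEC4F- macs and 52.8 ± 8.999 CPM in WD ResKCs (-1.69 ± 0.28, adjusted p = 1.27e-05). The phosphodiesterases split, *Pde8a* being lower (30.7 ± 12.1 against 97.9 ± 15.9 CPM, -1.67 ± 0.17, adjusted p = 2.23e-09) and *Pde3b* higher (27.5 ± 6.08 against 9.83 ± 1.43 CPM, 1.48 ± 0.29, adjusted p = 0.000132). Of 11 tested RGS genes, which switch G proteins off, 5 were higher and 1 lower in CLEC4F- macs than in WD ResKCs, beside the same shares. On WD at 24 weeks 3 of them were lower, beside 3.87% of all genes. *Rgs1* had 646 ± 338 CPM in CLEC4F- macs, 161 ± 70.6 CPM in WD ResKCs and 403 ± 188 CPM in SD ResKCs at 24 weeks (2.00 ± 0.44, adjusted p = 0.000502 for the populations and -1.32 ± 0.43, adjusted p = 0.0499 for diet, the latter passing in 2 of 12 fits without a sample). Its diet call held in 6 of 13 other settings, over which the log2 difference ran from -1.61 to -0.26. *Rgs18* had 5.75 ± 3.35 CPM in CLEC4F- macs and 0.674 ± 0.691 CPM in moKCs (3.10 ± 0.93, adjusted p = 0.018). Of 11 tested G protein alpha subunits 1 was higher and 3 lower in CLEC4F- macs than in WD ResKCs, and *Gna14* was lower on WD at 24 weeks (0.193 ± 0.298 against 1.41 ± 1.03 CPM, -2.80 ± 0.89, adjusted p = 0.0454, passing in 3 of 12 fits without a sample). Of 7 tested arrestins and receptor kinases 2 were higher and 3 lower in CLEC4F- macs than in WD ResKCs, beside the same 16.1% and 17% of all genes.

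Of 11 tested genes that encode known ligands of adhesion receptors, 4 were higher and 1 lower on WD at 24 weeks, beside 4.84% and 3.87% of all genes. *Cd55*, a complement regulator and ligand of CD97, fell from 200 ± 154 CPM on SD to 51.0 ± 28.2 CPM on WD (-1.97 ± 0.49, adjusted p = 0.0113, edgeR). *Thbs1* rose from 10.9 ± 8.75 to 51.9 ± 57.6 CPM (2.26 ± 0.53, adjusted p = 0.0077), with 165 CPM in the highest WD sample, and the adjusted p was 0.0604 without WD replicate 4. *Flrt2* and *Tenm4*, which are partners of latrophilins, went from 0.735 ± 0.684 to 3.21 ± 1.53 CPM (2.10 ± 0.65, adjusted p = 0.0374) and from 0.684 ± 0.240 to 3.24 ± 1.85 CPM (2.23 ± 0.69, adjusted p = 0.0377), each passing in 5 of 12 fits without a sample. *Flrt3* was at 0 in all 6 SD samples and reached 1.46 CPM on WD (adjusted p = 0.0379, passing in 4 of 12 fits). *Col3a1*, a ligand of *Adgrg1*, had 9.62 ± 5.21 CPM in WD ResKCs, 26.1 ± 7.15 CPM in moKCs (1.44 ± 0.40, adjusted p = 0.0413) and 31.1 ± 19.2 CPM in CLEC4F- macs (1.69 ± 0.39, adjusted p = 0.000865). It is also a gene of stellate cells, whose other markers are in a separate list, of which 1 of 7 was higher in moKCs and 2 of 7 in CLEC4F- macs than in WD ResKCs.

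Of 15 tested genes that make or break down lysophospholipids and endocannabinoids, 1 was higher and 5 lower in CLEC4F- macs than in WD ResKCs, beside 16.1% and 17% of all genes. Autotaxin (*Enpp2*) is not among these 15, as it was counted with the genes of nucleotide and adenosine handling. *Liph*, which forms lysophosphatidic acid, had 0.404 ± 0.318 CPM in CLEC4F- macs and 2.53 ± 1.02 CPM in WD ResKCs (-2.62 ± 0.47, adjusted p = 3.93e-05, edgeR). *Napepld*, which forms N-acylethanolamines, had 3.95 ± 0.986 CPM in CLEC4F- macs and 15.2 ± 4.38 CPM in WD ResKCs (-1.95 ± 0.54, adjusted p = 0.00503). On WD at 24 weeks 2 genes of this list were higher, beside 4.84% of all genes. Among them was *Mgll*, which degrades the endocannabinoid 2-arachidonoylglycerol, from 10.2 ± 4.54 to 21.7 ± 7.83 CPM (1.08 ± 0.33, adjusted p = 0.037, passing in 6 of 12 fits without a sample).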

How the data were processed

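Bulk RNA-seq libraries of 35 sorted samples in 6 groups were read from a table of whole-number counts per gene symbol, deposited by the authors as featureCounts output. Per the study's methods and submitters' notes, reads of 75 bases were aligned to mm10 with HISAT2 2.2.0 and counted with featureCounts 2.0.0, with FastQC 0.11.9 and SAMtools 1.10; annotation and strand setting are not given in the sources used here. Symbols were joined to GENCODE M21 for coordinates and exon length (57 of 57 members), and to RefSeq promoters on GRCm38.p6 (45 of 57).

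The 13421 genes that exceeded 1 CPM in 5 samples or more were fitted with edgeR 4.0.16 (R 4.3.3) as 1 mean per group over all 35 samples, with TMM factors and the quasi-likelihood F test, Benjamini-Hochberg over all genes, called at adjusted p under 0.05. CPM are TMM-scaled, and SE is the absolute log2 fold change over the root of F. DESeq2 1.42.0, limma 3.58.1 (voom), no filter, library-size scaling, robust dispersion, a log2 limit of 1, the compared groups alone, a replicate block, 3 covariates and leaving out each sample were alternatives; an endothelial covariate and the fit without 2 CLEC4F- libraries were added after seeing the data. The fit was also tested on simulated data with known changes. By comparison it recovered 38.8% to 53.7% of 1.5-fold and 59.7% to 77.6% of 2-fold changes, with 1.47% to 6.85% of calls false. A count of 0 or 1 members therefore does not show that such changes were absent. No 2 libraries of the same group agreed within sampling noise (lowest chi-square per gene 13.8), and libraries of different groups were not compared in this way. Intervals and floors (3 counts) cover counting error only.

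The members and lists were chosen with earlier results of these data known. Members that passed in any pairwise comparison were named with group values, up to 6 per comparison with the largest fold changes with sample values, along with 19 receptors of known macrophage interest, and related genes that passed with an absolute log2 fold change over 1. The values of 1 member are not reported here, although it is in the counts of members.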

Additional observations from a re-analysis of the deposited data

Results flagged for a closer look

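Outlying samples were sought only for the reported receptors that passed a pairwise comparison, in 188 groups of 5 to 7 samples whose values were not all equal. Of these groups, 18 held a sample whose gap to the nearest other sample was large for the group's range, by a criterion that chance meets in about 1 in 20 groups. In CLEC4F- macs replicate 1 stood apart for *Gpr18*, at 20.5 CPM where the others had 3.07 to 7.31, and for *P2ry10*, at 10.9 CPM where the others had 0.142 to 1.88. In moKCs *Adgre5* was 1122 CPM in replicate 1 and 728 to 802 CPM elsewhere, and *Adora3* was 1.32 CPM in replicate 5 and 0.258 to 0.557 CPM elsewhere.

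In WD ResKCs at 24 weeks *Adgre1* had 3724 CPM in replicate 2 and 2709 to 2980 CPM in the others. The low receptors *Gpr34* (1.66 CPM) and *Gpr162* (0.376 CPM, 5 counts) stood out in replicate 4 of that group, and *Gpr171* (1.07 CPM) in replicate 3. In SD ResKCs at 24 weeks replicate 2 was the only sample with counts of *Gpr162* (0.145 CPM, 2 counts), and *P2ry10* had 1.20 CPM in replicate 3.

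In WD ResKCs at 12 weeks *Adora2b* had 3.22 CPM in replicate 3, *Gpr146* 75.4 CPM in replicate 1, *Gpr176* 0.231 CPM (3 counts) in replicate 5 as the only sample above 0, and *Adgrv1* a low value of 1.44 CPM in replicate 4. In SD ResKCs at 12 weeks *Adgra3* had 17.3 CPM in replicate 5 where the others had 4.89 to 9.85, *Gpr18* had 4.28 CPM in replicate 3, and replicate 7 had 0.496 CPM of *Gpr132* and 0.0709 CPM (1 count) of *Gpr162*.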

How the results depend on the processing

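Of 103 counts of members that passed, recomputed under up to 13 settings for each comparison, 92 were within 1.5 times the reported count. Where the main fit called 0 members, another 0 was taken as within this limit, and most settings gave 0 there. With an absolute log2 fold change over 1, 3 members passed for diet at 24 weeks (3.35% of all genes), 15 for CLEC4F- macs against WD ResKCs (10.4%) and 9 against moKCs (5.05%). DESeq2 called 1 member for diet at 12 weeks (0.328% of all genes), 3 for the difference between the diet effects (1.37%) and 2 for moKCs against WD ResKCs (4.29%). In that last comparison the hepatocyte and the endothelial covariate also gave 2 each (3.32% and 3.57% of all genes). The immediate-early and heat-shock covariate gave 1 for the difference between the diet effects (0.529% of all genes). Leaving out single samples gave 0 to 1 for diet at 12 weeks, 5 to 10 for diet at 24 weeks (5 without WD replicate 1 or 6), 0 to 2 for the difference between the diet effects and 0 to 3 for moKCs (0 without moKC replicate 2, 3 without moKC replicate 1). It gave 25 to 31 for CLEC4F- macs against WD ResKCs and 14 to 18 against moKCs. Shares of all genes are not given for the fits without a sample. The cause of these shifts was not tested.

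Of 1248 values of single genes, 1083 kept their direction and side of the threshold, 162 lost and 2 gained significance, and 1 reversed, the difference between the diet effects for *Adora2b*, which was -0.14 with the naming scheme as covariate. The *Adgre4* difference at 12 weeks ran from -0.0893 to 0.0103 when samples were left out. Library-size scaling moved the share of higher genes among all calls from 48.6% to 66.7% for CLEC4F- macs against WD ResKCs, from 43.2% to 61.2% against moKCs, from 55.6% to 77.0% for diet at 24 weeks and from 23.7% to 63.6% for the difference between the diet effects; no called member changed direction.

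Replicate numbers recur between groups. Same-numbered samples deviated together with mean correlations of -0.112 to 0.117 by comparison. For CLEC4F- macs against WD ResKCs all 6 pairs were positive, from 0.0242 to 0.263, and 4 exceeded 0.1. Correlations of differently numbered samples were not computed, so these values cannot decide whether the numbers pair samples. The labels do not say that they do, and the main fit held no replicate block. With a replicate block in the compared groups alone, 0 members passed for moKCs against WD ResKCs, beside 0.894% of all genes. For CLEC4F- macs 6 passed against moKCs (4.97% of all genes) and 32 against WD ResKCs (29.9%), and 8 passed for diet at 24 weeks (6.92%). The 12 calls lost against moKCs were *Adgre4*, *Adgre5*, *Adora3*, *Gpr137b-ps*, *Gpr157*, *Gpr171*, *Gpr176*, *Gpr18*, *Gpr35*, *Gpr55*, *P2ry13* and *P2ry6*.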
